A study of Arabidopsis thaliana with 12 samples.

Results

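The transcripts described here gave a strong signal in whole Arabidopsis thaliana seedlings and held nearly the same signal on every array of a drought experiment. They were chosen by 2 values of their probe sets, the groups of short DNA probes that read 1 transcript on an array: a signal of at least 1000 on all 12 arrays, and a highest signal at most 35% above the lowest of the 12. Probe sets with more or fewer than 1 gene in the platform annotation and the manufacturer's control probe sets were left out. This left 48 probe sets of 48 genes, out of 904 single-gene probe sets at 1000 or more on all arrays, 13513 single-gene probe sets and 22810 probe sets in all. Because the array values chose these genes, their small spread is a description and is given without a test. Signals of different probe sets also depend on the probes, so they are not read here as levels of one transcript against another.

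Seedlings were of the wild type Col-0 or of hai1-2, a mutant line of At5g59220 (HAI1) in the same labelled background. They were moved at an age of 7 days either to fresh control plates at a water potential of -0.25 MPa or to agar infused with polyethylene glycol at -1.2 MPa, and were collected 96 h later. The 4 groups are called Col-0 control, hai1-2 control, Col-0 stress and hai1-2 stress, and each held 3 arrays, 1 from each of 3 independent experiments. All plants grew under continuous light on medium without sugar, and 1 mutant line was used.

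Polyethylene glycol of high molecular weight lowers the water potential outside the plant and draws water out of it, as drying soil does. HAI1 is a clade A type 2C protein phosphatase, a negative regulator in the signalling of the drought hormone abscisic acid. Many transcripts rise or fall in seedlings kept at low water potential, and measurements by quantitative PCR are usually set against reference transcripts taken to be steady. Such housekeeping transcripts encode ribosomal proteins, enzymes of central metabolism, the ubiquitin system and the machinery that moves membrane vesicles and secreted proteins.

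The authors' MAS5 processing gave each array the same trimmed mean signal of 500.04, and median signals over all probe sets lay between 194.85 and 212.45. A steady signal is therefore a steady share of what an array detects, and not a steady amount of RNA per seedling or per cell. In whole seedlings, fewer cells of a type and less RNA per cell cannot be told apart. Markers of shoot and of root were both present. The summed signal of the 4 measured shoot genes lay between 45434 and 64830 on control arrays and between 26733 and 33917 on stress arrays. That of the 3 measured root genes lay between 16345 and 16954 in Col-0 control, 14764 and 18260 in hai1-2 control, 16036 and 23401 in Col-0 stress, and 20978 and 23210 in hai1-2 stress. The shoot sums were lower under stress without overlap in both genotypes. The root sums were nearly all PYK10, whose mean signal was 18188, beside 204 for EXPA7 and 221 for EXPA18. They were higher under stress without overlap in hai1-2 only. EXPA7 and EXPA18 taken singly were higher without overlap in both genotypes. The part of the tissue balance in these signals was not tested. None of the seed storage or flower genes listed as markers had a single-gene probe set.

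Over the 48 genes the ratio of highest to lowest signal ran from 1.17 to 1.346, with a median of 1.30. The other 856 probe sets of the same minimum signal had a median ratio of 1.89, and the highest ratio among the 904 was 15.1. The coefficient of variation over 12 arrays was 5.01% to 10.5% with a median of 8.52%, against a median of 19.2% in the other strong probe sets. Between group means, which average over the 3 experiments, the highest was 1.04 to 1.23 times the lowest, with a median of 1.11. Mean signals over 12 arrays lay between 1096 and 16328. The weakest of the 48 stood at the 85.6th percentile of all probe sets by mean signal.

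**Figure D1:**
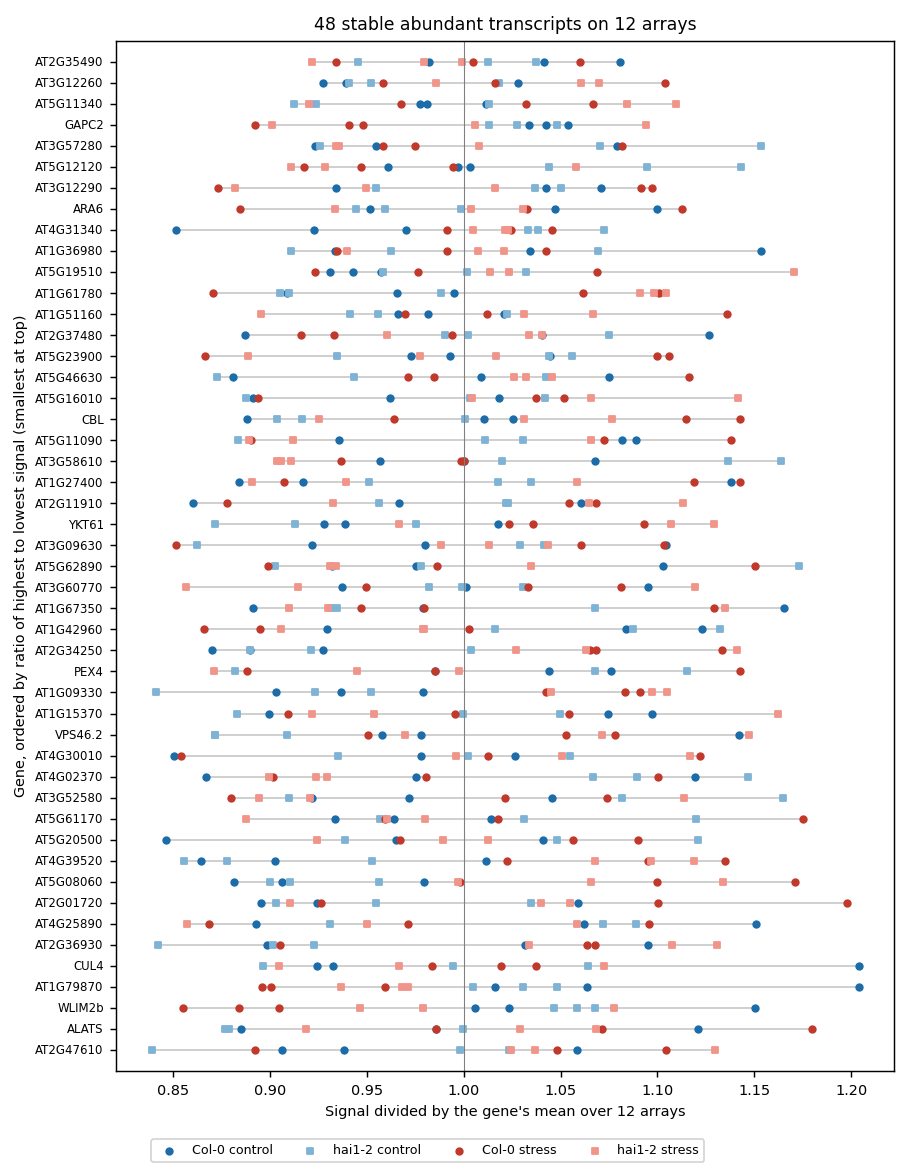
Signal of each of the 48 genes on each of 12 arrays (1 point per array), divided by that gene's mean over the arrays; rows are ordered by the ratio of highest to lowest signal. AT2G35490 at the top had a ratio of 1.17 and AT2G47610 at the bottom 1.346, and in most rows the 4 groups are mixed.

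The rule kept 21 of 283 probe sets with a mean signal from 1000 to 2000 (7.42%), 16 of 372 from 2000 to 4000 (4.301%), 8 of 172 from 4000 to 8000 (4.65%) and 3 of 77 above that (3.90%). In the lowest band the signal minimum itself limits the range, since a mean under 2000 leaves little room below it, so these shares are not read against each other. Among strong probe sets, those with 1 annotated gene met both values in 5.31% of cases, those with several genes in 4 of 80 and those with no listed gene in 59 of 1153. The probe sets with no listed gene are unnamed here and were not followed. The 48 genes were all protein-coding. They lay on chromosomes 1 to 5 in numbers of 12, 7, 10, 5 and 14. The 41 strong probe sets of plastid-genome genes included none of them. The median gene length was 1984.5 bases, against 2003 bases over the other 856 strong probe sets.

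**Figure D2:**
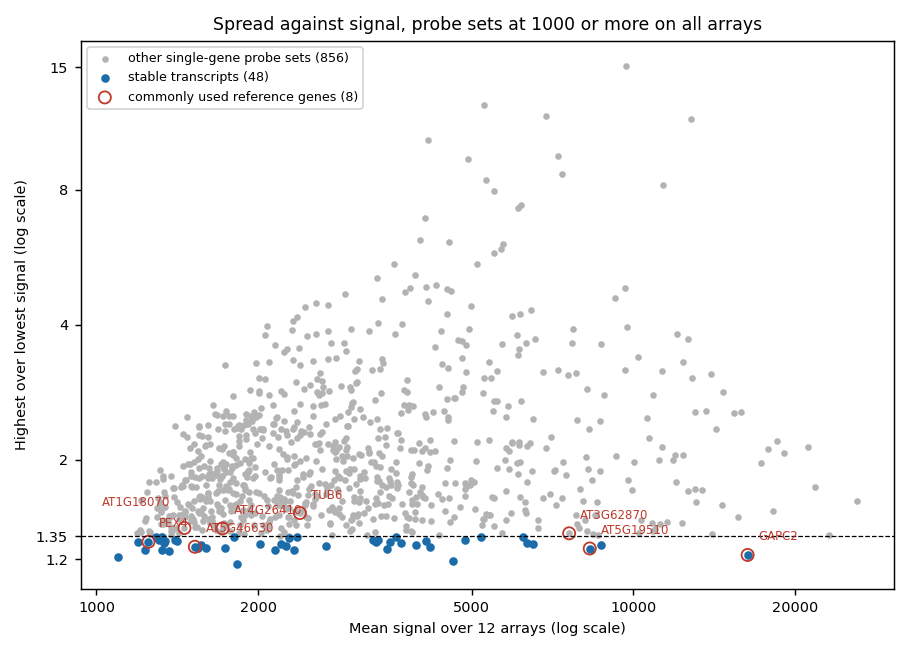
Ratio of highest to lowest signal over 12 arrays against the mean signal, both on log scales, for 904 single-gene probe sets at 1000 or more on all arrays; blue points are the 48 below the dashed limit (highest 35% above lowest) and red rings are 8 commonly used reference genes. Ratios reached 15.1, and 4 of the 8 reference genes lay below the limit.

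AT2G35490, a plastid protein of the fibrillin family, whose members bind lipids at plastoglobules and thylakoids, had the smallest spread. It read 1976, 1795 and 1904 on Col-0 control arrays, 1728, 1851 and 1896 on hai1-2 control arrays, 1836, 1938 and 1708 on Col-0 stress arrays and 1826, 1791 and 1685 on hai1-2 stress arrays. All 4 groups overlapped, and group means lay between 1767 ± 73.5 and 1892 ± 90.9 (SD, n = 3). The other plastid membrane gene, AT3G57280, encodes FAX1, which exports fatty acids across the chloroplast inner envelope. FAX1 read 1262, 1306 and 1475 on Col-0 control arrays, 1266, 1464 and 1577 on hai1-2 control arrays, 1479, 1310 and 1334 on Col-0 stress arrays and 1379, 1280 and 1278 on hai1-2 stress arrays. Its lowest and highest signals both came from control arrays, so its whole range lay within that condition.

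Enzymes and carriers of metabolism made up 8 of the 48. AT3G12260 and AT1G67350 encode subunits of complex I, which passes electrons from NADH into the mitochondrial respiratory chain. AT3G12260 was second in stability, with 4284, 4339 and 4749 on Col-0 control arrays, 4400, 4703 and 4345 on hai1-2 control arrays, 4427, 4694 and 5099 on Col-0 stress arrays and 4941, 4898 and 4555 on hai1-2 stress arrays. In both genotypes each stress array was above the control array of the same experiment, and the groups overlapped. AT1G67350 ranged from 3295 on Col-0 control array 2 to 4306 on Col-0 control array 3, so here too 1 group held both ends.

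GAPC2, a cytosolic glyceraldehyde-3-phosphate dehydrogenase (GAPDH) of glycolysis, had the brightest probe set of the 48 and the fourth smallest ratio, 1.23. Its signals were 17019, 17204 and 16882 in Col-0 control, 16774, 17114 and 16540 in hai1-2 control, 15359, 15478 and 14566 in Col-0 stress, and 16424, 17861 and 14711 in hai1-2 stress. The 3 Col-0 stress arrays were below the 3 Col-0 control arrays without overlap, with a group mean of 15134 ± 496 against 17035 ± 162 (SD, n = 3), whereas hai1-2 stress spread over nearly the whole range. Saturation of the brightest signals could not be judged from the deposited values, whose maximum was 39146 over all probe sets.

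AT3G58610 encodes ketol-acid reductoisomerase, an enzyme of branched-chain amino acid synthesis in the plastid. It read 8691, 9276 and 8314 in Col-0 control, 9873, 8859 and 10113 in hai1-2 control, 8141, 8690 and 8676 in Col-0 stress, and 7872, 7913 and 7850 in hai1-2 stress. The 3 hai1-2 stress arrays lay below the other 9, with an SD of 32.05 (n = 3). AT3G12290, a folate enzyme that interconverts one-carbon units, ranged from 2040 to 2564, both ends in Col-0 stress. CBL, cystathionine beta-lyase of methionine synthesis, read 2278, 2003 and 2312 in Col-0 control and 2576, 2173 and 2513 in Col-0 stress. In hai1-2 the CBL signals were 2067, 2037 and 2256 against 2325, 2086 and 2427. CBL was higher at low water potential in each of the 6 pairs of arrays from one experiment and genotype, yet its control and stress groups overlapped.

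AT1G79870 encodes HPR2, the cytosolic hydroxypyruvate reductase that backs up the peroxisomal enzyme of photorespiration. Its signals were 1372, 1312 and 1554 in Col-0 control, 1330, 1297 and 1353 in hai1-2 control, 1238, 1162 and 1156 in Col-0 stress, and 1209, 1250 and 1254 in hai1-2 stress. All 6 stress arrays were below all 6 control arrays. AT5G20500, a glutaredoxin that reduces disulfides with glutathione, went from 2832 on Col-0 control array 3 to 3752 on hai1-2 control array 2, and the stress arrays lay between.

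Cytosolic ribosomal proteins, the protein part of the particles that translate nuclear messages, gave 8 of the 48. They were AT5G23900 (L13), AT1G27400 (L17), AT3G09630 (L4), AT2G47610 (L7a) and AT4G25890 (the stalk protein P3) of the large subunit, and AT3G60770 (S13), AT3G52580 (S14) and AT5G61170 (S19) of the small subunit. Their ratios ran from 1.28 for L13 to 1.346 for L7a. L13 read 4071, 4370 and 4154 in Col-0 control, 4420, 3910 and 4369 in hai1-2 control, 4629, 3626 and 4601 in Col-0 stress, and 4089, 3720 and 4254 in hai1-2 stress. L4 read 6008, 7197 and 6386, then 5622, 6707 and 6787, then 7191, 6910 and 5549, and last 6604, 6800 and 6442 in the same group order. Both ends of the L13 range were Col-0 stress arrays, the L4 range ran from a Col-0 stress to a Col-0 control array, and no group stood apart in either gene.

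S13 read 6356, 5950 and 6952 in Col-0 control, 6343, 6543 and 6235 in hai1-2 control, 6864, 6030 and 6559 in Col-0 stress, and 5806, 7106 and 5438 in hai1-2 stress, so the lowest and highest arrays were of 1 group. S19 read 4537, 4684 and 4928, then 4648, 5441 and 5011, then 5709, 4662 and 4945, and last 4313, 4666 and 4762 in that order of groups. The S19 control and stress groups overlapped in both genotypes. L7a, the gene closest to the limit, read 5218, 6206 and 6365 in hai1-2 control and 6369, 7026 and 6448 in hai1-2 stress, which did not overlap, and from 5550 to 6870 in Col-0, where control and stress overlapped. L17 ranged from 3476 to 4494, S14 from 2882 to 3814 and P3 from 1137 to 1527, with overlapping control and stress groups in both genotypes.

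These 8 genes were a small share of their class. Of 207 listed loci of cytosolic ribosomal proteins, 118 had a single-gene probe set and 95 of those were at 1000 or more on all arrays. The 8 stable genes are 8.42% of the 95, beside 5.31% of all 904, and the median ratio of the 95 was 1.57, beside 1.84. Among the 114 ribosomal probe sets tested, 14 rose and 0 fell in Col-0 at low water potential, with a median log2 difference of 0.15. The rule had limited the range of the 8 stable genes. Without them the same counts came from 106 probe sets, with a median of 0.16. Of all 17059 tested, 18.1% rose and 16.1% fell. In hai1-2, 12 of the 114 rose and 2 fell, with a median of 0.081, or 0.094 over the 106. Of all tested, 19.9% rose and 17.8% fell in hai1-2. The 2 that fell were AT4G13170 (L13a) by 0.47 and AT3G28900 (L34) by 0.38 on the log2 scale, the second no longer called with a replicate block (adjusted p = 0.0646), and the largest rise was that of AT5G39850 (S9), with log2 differences of 1.67 in Col-0 and 1.88 in hai1-2. These last 3 were chosen after their values were seen.

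Translation contributed 3 more genes. AT5G19510 encodes a subunit of elongation factor eEF1B, which reloads the elongation factor that brings aminoacyl-tRNA to the ribosome. It read 7823, 7943 and 7724 in Col-0 control, 8310, 8562 and 7952 in hai1-2 control, 8865, 7661 and 8102 in Col-0 stress, and 8407, 9709 and 8488 in hai1-2 stress. The hai1-2 control arrays were all above the Col-0 control arrays, the closest at 7952 against 7943, while the stress groups overlapped. ALATS, alanyl-tRNA synthetase, read 3568, 3203 and 4057, then 3618, 3174 and 3182 on the control arrays of Col-0 and hai1-2. On stress arrays ALATS read 4270, 3877 and 3567 in Col-0 and 3866, 3325 and 3725 in hai1-2, and the groups overlapped.

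AT4G39520, a developmentally regulated GTP-binding protein (DRG), a conserved GTPase found with ribosomes, had the highest coefficient of variation of the 48. Its signals were 1417, 1211 and 1264 in Col-0 control, 1335, 1230 and 1199 in hai1-2 control, 1534, 1590 and 1432 in Col-0 stress, and 1496, 1567 and 1536 in hai1-2 stress. Every stress array was above every control array, with means of 1526 ± 56.0 and 1276 ± 84.7 (SD, n = 6 each).

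Membrane traffic and secretion gave 9 genes that act at successive steps. AT2G34250 encodes the alpha subunit of Sec61, the channel through which new secretory proteins enter the endoplasmic reticulum. It read 3134, 3268 and 3065 in Col-0 control, 3135, 3246 and 3537 in hai1-2 control, 3993, 3765 and 3753 in Col-0 stress, and 3746, 4021 and 3619 in hai1-2 stress. All 6 stress arrays exceeded all 6 control arrays, the closest being 3619 against 3537. AT2G01720 encodes ribophorin I, part of the oligosaccharyltransferase that attaches sugars to those proteins, and ranged from 2044 to 2733 with overlapping groups.

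At the Golgi and beyond, AT1G09330 encodes ECHIDNA, which secretory vesicles leaving the trans-Golgi network need. Its signals were 1170, 1079 and 1119 in Col-0 control, 1005, 1138 and 1103 in hai1-2 control, 1246, 1294 and 1304 in Col-0 stress, and 1249, 1311 and 1320 in hai1-2 stress. The lowest stress signal was above the highest control signal. YKT61, a SNARE that drives membrane fusion, read 1869, 2050 and 1891 in Col-0 control and 2087, 2201 and 2062 in Col-0 stress. In hai1-2, YKT61 read 1838, 1756 and 1964 against 2274, 1947 and 2230, so the groups separated in Col-0 and overlapped in hai1-2.

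AT1G51160, a subunit of the TRAPP tethering complex, ranged from 1382 to 1753 with all groups overlapping. ARA6, a plant-specific Rab5 GTPase of late endosomes, read 1263, 1390 and 1460, then 1253, 1325 and 1273, then 1174, 1477 and 1371, and last 1368, 1332 and 1239 in Col-0 control, hai1-2 control, Col-0 stress and hai1-2 stress. Both ends of the ARA6 range were Col-0 stress arrays. For endocytosis at the plasma membrane there were AT5G46630, the medium chain of the clathrin adaptor AP2, and AT1G15370, the LOLITA subunit of the TPLATE complex. AT1G15370 ranged from 1247 to 1641 with all groups overlapping. VPS46.2, a subunit of ESCRT-III that sorts membrane proteins into multivesicular bodies, ranged from 1167 on hai1-2 control array 2 to 1536 on hai1-2 stress array 2. Its hai1-2 control arrays (1218, 1167 and 1168) lay below all 9 others, of which the lowest was 1273.

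In the list of 46 loci of these complexes, 31 had a single-gene probe set, and 34 probe sets read them. Of the 11 probe sets at 1000 or more on all arrays, 9 were among the 48, a share fixed by a list that was drawn up around them. Among 33 tested probe sets, 3 rose in Col-0 and 4 in hai1-2, and 0 fell in either, beside the shares of all probe sets given above (18.1% and 19.9% rose, 16.1% and 17.8% fell). The rule had limited the range of the 9, and the same counts came from the 24 tested probe sets outside the 48. Risers included TPLATE, the namesake of its complex (log2 0.63 ± 0.16 SE in Col-0, adjusted p = 0.00679 by limma), SNF7.2 of ESCRT-III (0.58 ± 0.20, adjusted p = 0.0339) and AT5G02280 of TRAPP (0.65 ± 0.15, adjusted p = 0.00429). In hai1-2 the same 3 differed by 0.45, 0.53 and 0.85 with adjusted p of 0.0374, 0.0461 and 0.000537, and SNF7.1 of ESCRT-III by 0.53 with an adjusted p of 0.0256 by limma. With the experiments as a replicate block, SNF7.2 was no longer called in hai1-2 (adjusted p = 0.0515). These 4 and the relatives described below were named after their values were seen.

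PEX4, a ubiquitin-conjugating enzyme of the peroxisome also called UBC21, read 1345, 1305 and 1232 in Col-0 control, 1102, 1394 and 1334 in hai1-2 control, 1231, 1110 and 1428 in Col-0 stress, and 1089, 1247 and 1181 in hai1-2 stress. The groups overlapped, and the Col-0 stress arrays alone ran from 1110 to 1428. CUL4, the scaffold of a family of ubiquitin ligases, ranged from 1618 to 2172, both on control arrays. WLIM2b, a LIM protein that bundles actin filaments, read 5324, 5985 and 5233 in Col-0 control and 4708, 4600 and 4449 in Col-0 stress, without overlap. In hai1-2, WLIM2b read 5507, 5447 and 5557 against 5094, 5608 and 4924, with overlap.

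AT5G11340, the acetyltransferase NAA50 that modifies protein N termini, was among the steadiest and had the weakest signal of the 48. Its signals were 1075, 1071 and 1109 in Col-0 control, 1012, 1000 and 1110 in hai1-2 control, 1169, 1060 and 1131 in Col-0 stress, and 1188, 1008 and 1216 in hai1-2 stress. Its hai1-2 control array 2 was at the minimum signal itself. AT5G62890, a nucleobase-ascorbate transporter (NAT6), ranged from 1199 to 1565 with overlapping groups.

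In the sources used, 39 of the 48 genes are named by a locus only. Among them are the other 13 genes, for which no role is given here. Of these, AT5G12120 read 1228, 1183 and 1236 in Col-0 control, 1286, 1348 and 1408 in hai1-2 control, 1130, 1166 and 1225 in Col-0 stress, and 1143, 1122 and 1303 in hai1-2 stress. On control plates its hai1-2 arrays were above the Col-0 arrays without overlap. AT4G31340 read 2082, 1981 and 1828, then 2301, 2218 and 2229, then 2245, 2128 and 2199, and last 2196, 2192 and 2157 in the same group order. Here the Col-0 control arrays stood below all 9 others.

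AT1G36980 ranged from 3166 to 4008, both on control arrays. AT1G61780 read 1895, 1907 and 1918 in hai1-2 stress, above the 1572, 1580 and 1717 of hai1-2 control, while in Col-0 it read 1578, 1728 and 1677 against 1844, 1512 and 1911. AT5G08060 read 1197, 1164 and 1294 in Col-0 control, 1202, 1263 and 1189 in hai1-2 control, 1452, 1318 and 1546 in Col-0 stress, and 1317, 1408 and 1498 in hai1-2 stress. For AT5G08060 all 6 stress arrays exceeded all 6 control arrays. The lowest and highest signals of the rest were 2373 and 3050 for AT5G16010, 1385 and 1783 for AT5G11090, 1899 and 2458 for AT2G11910, 2871 and 3754 for AT1G42960, and 3495 and 4608 for AT4G30010. For AT4G02370 they were 1136 and 1502, for AT2G36930 1989 and 2671, and for AT2G37480 1422 and 1806.

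**Figure D3:**
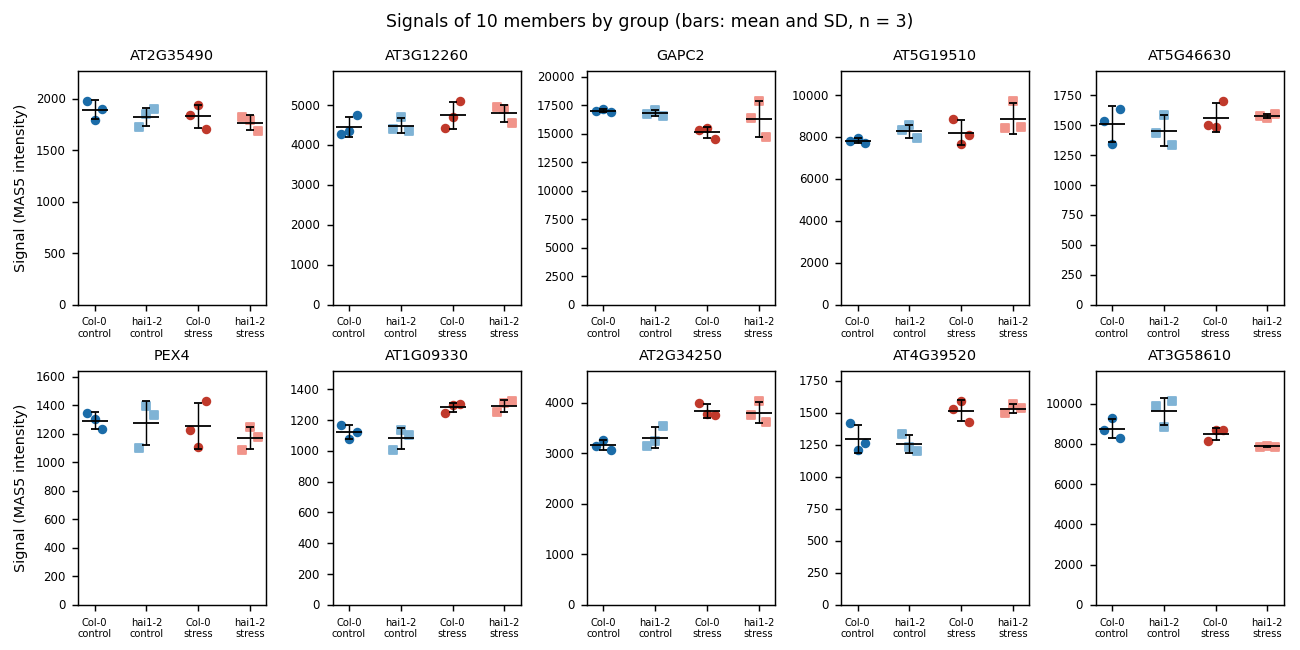
MAS5 signal of 10 stable transcripts by group; points are arrays, and the line and bars are the mean and SD of 3 arrays. All axes start at 0. AT1G09330, AT2G34250 and AT4G39520 show 6 stress arrays above 6 control arrays, and in AT3G58610 the hai1-2 stress arrays lie lowest.

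Of 43 loci commonly used as PCR reference genes in Arabidopsis, 16 had a single-gene probe set, 8 of those were at 1000 or more on all arrays, and 4 were among the 48: GAPC2, AT5G19510, AT5G46630 and PEX4. AT5G46630 read 1539, 1344 and 1639 in Col-0 control, 1438, 1590 and 1331 in hai1-2 control, 1501, 1481 and 1702 in Col-0 stress, and 1574, 1565 and 1594 in hai1-2 stress, with all groups overlapping. The other 4 strong ones were AT3G62870 (L7a) with a ratio of 1.37, AT4G26410 and AT1G18070 with 1.41 each, and TUB6, a beta-tubulin, with 1.52. TUB6 fell in hai1-2 by 0.51 ± 0.12 on the log2 scale (limma, adjusted p = 0.0044) and had a log2 difference of -0.30 ± 0.12 in Col-0 (adjusted p = 0.0659).

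The other 8 reference genes fell short of 1000 on at least 1 array, TUB5 and AT4G33380 among them although both also read above 2000. Their ratios were 1.46 for AT5G15710, 1.55 for AT2G28390, 1.60 for AT4G34270, 1.95 for AT2G32170, 2.49 for AT5G55840, 3.18 for AT4G33380, 4.67 for TUB5 and 6.42 for AT5G12240. TUB5, another beta-tubulin, fell by 1.38 ± 0.16 in Col-0 (limma, adjusted p = 1.92e-05) and fell by 1.92 ± 0.16 in hai1-2 (adjusted p = 8.12e-07) on the log2 scale. AT2G32170 rose by 0.74 ± 0.16 in hai1-2 (adjusted p = 0.0025) and differed by 0.37 ± 0.16 in Col-0 (adjusted p = 0.0896). The remaining 13 of the 16 were not called in either genotype, where 34.2% of all probe sets tested were called in Col-0 and 37.6% in hai1-2. The 13 include the 4 that are among the 48, whose range the rule had limited. AT5G55840 and AT5G12240 had weak mean signals of 60.1 and 40.5. Nothing is therefore read from this count.

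In the fit of all 17059 tested probe sets, 34.2% were called in Col-0 between low water potential and control, and 0 of the 48 were. That contrast is made of the values that chose the genes, so nothing is read from the count. Their fitted log2 differences had a median of 0.018 and lay between -0.26 (WLIM2b) and 0.28 (AT2G34250). At an unadjusted p under 0.05 (limma) there were 2 of the 48, beside 7430 of all 17059 tested. The lowest adjusted p among the 48 was 0.0657, that of AT2G34250. In hai1-2, where 37.6% of probe sets were called, the count was 1 of 48. This was AT3G58610, lower by 0.28 ± 0.11 (SE) on the log2 scale (limma, adjusted p = 0.0492), and with the experiments as a replicate block in the fit the count was 0 of 48. Leaving out single arrays also ended this call in 10 of 12 fits. The hai1-2 differences of the 48 had a median of 0.015 and reached 0.29 for AT2G36930 and AT4G39520. An unadjusted p under 0.05 was found for 4 of them, beside 7940 of all 17059 tested.

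Between the genotypes, 0% of all probe sets were called on control plates, 0.00586% under stress and 0.00586% for the interaction of genotype with water potential, and 0 of the 48 in each. With the experiments as a replicate block, 1 probe set was called on control plates, 3 under stress and 1 for the interaction, again with 0 of the 48. Unadjusted p-values under 0.05 also numbered 0 of 48 in each of these 3 comparisons, beside 546, 953 and 732 of all 17059 tested. Nothing is read from these counts, since the same values chose the genes. The median log2 differences of the 48 were -0.0049, -0.011 and 0.0029, and the largest in size were 0.21, 0.18 and 0.29.

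**Figure D4:**
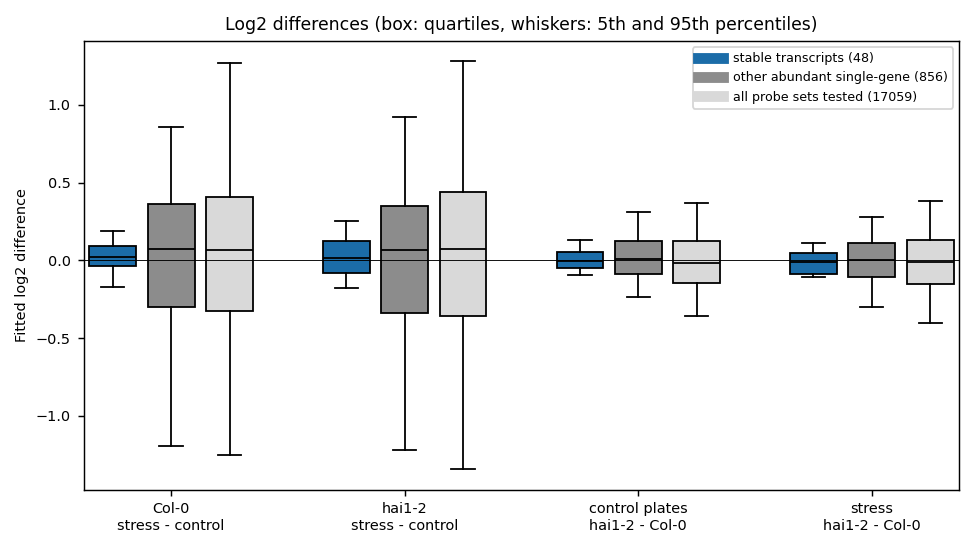
Fitted log2 differences in 4 comparisons for the 48 stable transcripts, the 856 other strong single-gene probe sets and all 17059 probe sets tested; the line is the median, boxes span the quartiles and whiskers the 5th to 95th percentiles. The stable transcripts lie no farther than 0.29 from 0 in each comparison, a narrow spread on the values that chose them.

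A bounded range still allows small shifts by water potential. The 3 stress and 3 control arrays did not overlap for 9 of the 48 in Col-0 (18.8%), against 44.7% of all probe sets, and for 13 in hai1-2 (27.1%), against 52%. Of the 9, 6 were higher and 3 lower under stress, and of the 13, 8 were higher and 5 lower. The hai1-2 group included VPS46.2 and AT2G36930, which were higher, and AT4G02370, which was lower. For genotype, 4 did not overlap on control plates (8.33%, against 6.41%) and 2 under stress (4.17%, against 14.1%). All 6 stress arrays were above all 6 control arrays for 4 genes, against 16.2% of all probe sets, and below them for 1, against 14.3%. The 4 were ECHIDNA, AT5G08060, Sec61 alpha and the GTPase AT4G39520, with mean stress signals 1.17, 1.17, 1.18 and 1.196 times the control means. The 1 was HPR2, at 0.885 times. Over the 48, the ratio of the stress mean to the control mean ran from 0.883 (AT1G42960) to 1.196. The other 43 overlapped between the conditions.

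Taken experiment by experiment, 7 genes were higher at low water potential in all 6 pairs of arrays: YKT61, AT5G08060, CBL, AT4G39520, AT3G12260, AT1G09330 and AT2G34250. Lower in all 6 were AT5G12120, AT1G42960 and AT1G79870. These 7 and 3 genes are 14.6% and 6.25% of the 48, beside 24.5% and 20.1% of all probe sets tested, and nothing is read from them since the same signals chose the genes. AT4G31340 alone was higher in all 3 experiments of Col-0 and lower in all 3 of hai1-2, a pattern of opposite signs that 0.926% of all probe sets tested had.

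The share of each gene's variance that lay between the 4 groups had a median of 25.8% in the 48, beside 57.1% in the other strong probe sets and 27.3% from the degrees of freedom alone. Water potential took a median of 14.6% and the experiments 11.3%, beside 45.5% and 7.70% in the other strong probe sets. The degrees of freedom alone give 9.09% for water potential and 18.2% for the experiments. The rule limited the range over these same arrays, and with it any difference between groups. These shares are therefore a description, and nothing is read from how they compare. For AT1G09330, AT2G34250 and AT4G39520 the groups still held 83.7%, 82.8% and 79.0%. Correlations over 12 arrays between the 1128 pairs of the 48 had a median of 0.048 and ran from -0.82 to 0.86, and the highest was that of WLIM2b with GAPC2. These correlations share arrays and scaling and are given without a test.

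Relatives of the stable genes came from lists of protein families and complexes written with the 48 known. Those described singly below were picked after their values were seen and do not stand for all relatives. Of 34 families or complexes, 20 had a listed relative with its own single-gene probe set, 40 probe sets in all. The listed relatives had ratios from 1.36 to 28.7, and 10 were at 1000 or more on all arrays. The lists are not complete, and their measured relatives included no further subunit of complex I. An equally strong and steady relative would itself have been one of the 48, so part of this contrast is set by the rule.

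HPR, the peroxisomal hydroxypyruvate reductase of photorespiration, is the counterpart of the cytosolic HPR2. HPR ranged from 6434 to 17912 and fell by 1.05 ± 0.14 in Col-0 (limma, adjusted p = 6.82e-05) and by 1.05 ± 0.14 in hai1-2 (adjusted p = 5.81e-05) on the log2 scale, while HPR2 had log2 differences of -0.25 and -0.10. AT1G77370, a glutaredoxin close to AT5G20500, rose by 1.07 ± 0.15 in Col-0 (adjusted p = 0.000125) and 1.00 ± 0.15 in hai1-2 (adjusted p = 0.000188), beside 0.13 and -0.08 for AT5G20500. AT1G72660, another DRG GTPase with a weak signal of 5.20 to 149, rose by 1.54 ± 0.30 in Col-0 (adjusted p = 0.00119) and 2.16 ± 0.30 in hai1-2 (adjusted p = 6.65e-05), beside 0.23 and 0.29 for AT4G39520.

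Smaller differences were found in other families. AT5G57290, the other P3 stalk protein, rose in Col-0 by 0.57 ± 0.16 (limma, adjusted p = 0.0141) and differed by 0.11 in hai1-2 (adjusted p = 0.632), beside -0.08 and -0.11 for AT4G25890. AT2G38660, a second folate enzyme, rose by 0.40 in Col-0 (adjusted p = 0.0261) and 0.36 in hai1-2 (adjusted p = 0.0407, and 0.0543 with a replicate block), beside 0.0015 and -0.10 for AT3G12290. WLIM2a fell in hai1-2 by 0.50 (adjusted p = 0.0244). Relatives that were not called included AT1G67430 (L17), AT5G02870 (L4), AT3G62870 (L7a), both S14 and both S19 relatives, both other Sec61 alpha genes and the other ribophorin I gene. Whether a relative's response differed from that of the stable gene was not tested.

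**Figure D5:**
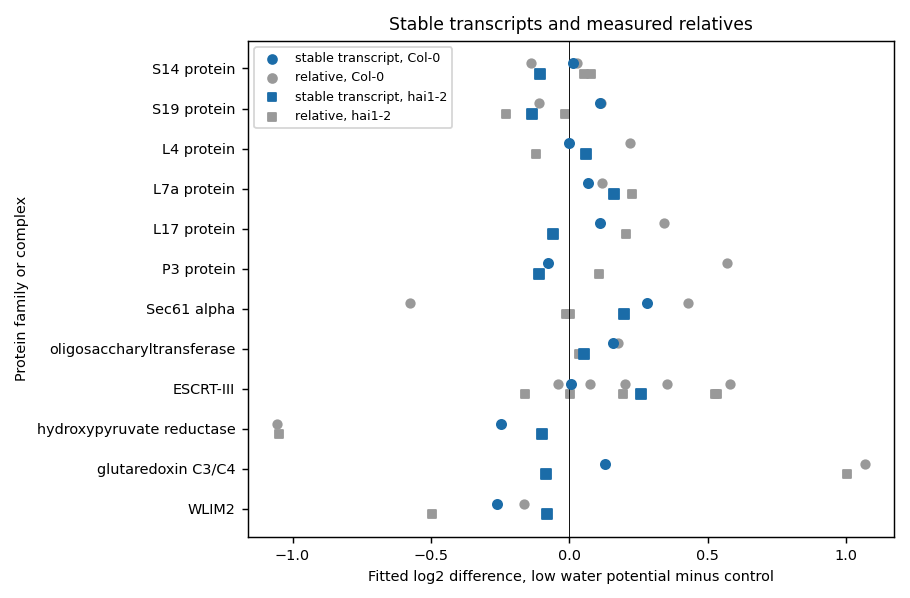
Fitted log2 difference of low water potential minus control for stable transcripts (blue) and relatives of the same family or complex (grey), in Col-0 (circles) and hai1-2 (squares), for 12 families picked by hand. HPR lies at -1.05 in both genotypes and the glutaredoxin AT1G77370 at 1.07 and 1.00, and the stable counterparts no farther than 0.29 from 0.

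A single stable gene had a second single-gene probe set, which the rule did not use. For AT2G37480 the probe set that met the rule ranged from 1422 to 1806. The other read 1040, 1045 and 621 in Col-0 control, 905, 924 and 916 in hai1-2 control, 646, 1008 and 527 in Col-0 stress, and 771, 1038 and 866 in hai1-2 stress. Its ratio was 1.98, from Col-0 stress array 3 at the low end to Col-0 control array 2 at the high end. It was not called in either genotype (log2 -0.32 ± 0.24 in Col-0, adjusted p = 0.327, and -0.05 ± 0.24 in hai1-2, adjusted p = 0.897, limma). The steadiness of 1 probe set for this gene was thus not matched by the other.

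The manufacturer's control probe sets for GAPDH, actin and ubiquitin were also outside the rule. All 5 GAPDH control probe sets were higher on the 6 stress arrays than on the 6 control arrays without overlap, by 1.58-fold to 1.83-fold. For AFFX-r2-At-GAPDH-3_s_at the control arrays ran from 5371 to 8957 and the stress arrays from 11236 to 13877, a 1.60-fold difference (two-sided exact permutation test, p = 0.00216, the smallest that 6 arrays against 6 can give). GAPC2 on the same arrays stayed between 14566 and 17861, and which GAPDH gene the controls read is not given in the sources used here. AFFX-r2-At-Ubq-3_x_at met both values of the rule, with a ratio of 1.33. The r2 actin and ubiquitin controls differed by 0.978-fold to 1.10-fold between conditions, with overlap. Of the older designs, actin 3' differed by 1.18-fold (p = 0.0108, adjusted 0.0289 over the 16 control probe sets compared) and ubiquitin 5' by 1.22-fold (p = 0.0173, adjusted 0.0396) in the same exact permutation test, and the groups overlapped. The GAPDH p-value adjusted in this way was 0.00693. These tests shuffled the arrays freely and ignored the pairing by experiment and genotype. A shuffle within such pairs has fewer arrangements and could not give unadjusted p-values as small as these. These control probe sets were looked at after the data were seen.

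The limit of 35% cut through a continuous range. Just inside it by the ratio of highest to lowest signal were AT2G47610 (1.346), ALATS and WLIM2b (1.345 each), AT1G79870 (1.344) and CUL4 (1.343). Just outside were AT4G25740 of ribosomal protein S10, AT1G33780 and AT2G20360 (1.352 each), AT3G53430 of ribosomal protein L12 (1.355) and PIFI, a chloroplast protein (1.357). AT1G33780 read 1448, 1516 and 1454 in Col-0 control, 1187, 1320 and 1410 in hai1-2 control, 1250, 1222 and 1121 in Col-0 stress, and 1297, 1278 and 1307 in hai1-2 stress.

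One array shaped the membership more than the others. Col-0 control array 3 held the lowest signal for 181 and the highest for 129 of the 904 strong probe sets, and hai1-2 stress array 2 the highest for 164. Without Col-0 control array 3 the rule was met by 95 probe sets, the 48 and 47 more, of which 28 were lowest and 19 highest on that array. Without any other single array it was met by 51 to 68. The ratio of the 5' to the 3' actin control (r2 probe sets), which falls when RNA is degraded, was lowest there at 0.268 and between 0.303 and 0.564 on the others. The ubiquitin ratio of the r2 design was also lowest there, at 0.657 against 0.679 on the next array. The r2 GAPDH ratio was 0.983 there, within the range of 0.756 to 1.16. In the older control designs the ratios of GAPDH, actin and ubiquitin were each lowest on that array, at 0.438, 0.0323 and 0.244. The next lowest were 0.631, 0.0361 and 0.279. Their part in the membership was not tested. On single arrays the median deviation of the 48 from their means lay between -0.06 and 0.09 on the log2 scale.

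Other scalings of the same arrays kept most but not all of the genes. With arrays centred on their median log2 signal the rule was met by 47 probe sets, of which 36 were among the 48, and with quantile normalization by 49, of which 39 were. Under both, 30 of the 48 stayed within the limit, and the highest ratio that any of the 48 reached was 1.42.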

How the data were processed

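Biotin-labelled RNA of whole seedlings was measured on 12 one-colour Affymetrix arrays. The deposited values are linear signal intensities made by the authors with MAS5, per the submitters' processing notes. The MAS5 version and settings were not stated. With 2% of probe sets trimmed from either end, every array had a mean of 500.04, so no scaling was added. The deposited values hold no detection calls, and the number of arrays limits the precision.

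The rule (signal of at least 1000, ratio of at most 1.35) was applied to the intensities. For comparisons, log2(intensity + 16) was taken, 64 control probe sets and the lowest 25% by mean were left out, and 17059 probe sets remained. limma 3.58.1 (R 4.3.3) fitted 4 group means with an intensity trend, tested on simulated data first. Two-sided p-values were adjusted by Benjamini-Hochberg over these, with a threshold of 0.05 for a call. The SE comes from the fit and the SD from the arrays. Exact permutation tests used scipy 1.17.1 and treated the arrays as unpaired. Figures and tables used matplotlib 3.10.9, pandas 2.3.3, numpy 2.4.6, Python 3.11.15 and version 1.17.8 of data.table.

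Names came from a platform annotation updated through TAIR10.1, with 1 gene for 13513 probe sets. HAI1 is not among them, so genotype labels were not checked against it. Roles are textbook knowledge. The genes, lists and tests were chosen with earlier results of these data known, and families and relatives were listed with the 48 genes known. Named genes were the 12 with the lowest ratio, the 8 with the highest and 4 with the lowest mean signal, the 5 just inside and 5 just outside the limit, called genes, genes with a second probe set and all measured reference genes. The others were named after their values were seen.

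Per the design text, an experiment supplied 1 array per group, and replicate numbers therefore pair the arrays. Deviations from group means correlated at -0.098 to 0.52 for the same number and -0.42 to 0.19 for different numbers. Arrays of the same condition and number, from both genotypes, gave 0.13 to 0.52. Control against stress arrays of the same genotype gave -0.023 to 0.093 for the same number and -0.15 to 0.12 for different numbers. Alternatives were other signal minimums and ratio limits, median centring, centring on the 48 genes, quantile normalization, pseudocounts of 1 and 64, no filter or 50% removed, no trend, a replicate block, 1 probe set per gene and leaving out each array.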

Additional observations from a re-analysis of the deposited data

Results flagged for a closer look

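AT4G31340, for which no role is given here, had stress minus control values of opposite sign in the 2 genotypes in every experiment. On the log2 scale these were 0.11, 0.10 and 0.27 in Col-0 and -0.07, -0.02 and -0.05 in hai1-2. The interaction of genotype with water potential was -0.20 (limma, adjusted p = 0.990), so the difference was not called, and the signals of this gene were among those that chose it. Neither genotype's difference was called by limma (adjusted p = 0.297 in Col-0 and 0.785 in hai1-2), and 1 of 48 is 2.08%, beside 0.926% of all probe sets tested. The Col-0 control arrays, at 1828 to 2082, were the low group.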

How the results depend on the processing

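The number of probe sets that met the rule depended on its values: 48 became 88 with a signal minimum of 500, 23 with 2000, 5 with a limit of 25% above the lowest signal and 179 with 50%, and their median ratio became 1.22 and 1.41 under these last limits. Leaving out single arrays gave 51 to 95, with median ratios of 1.29 to 1.31; the 95 came without Col-0 control array 3. In Col-0 the count called was 1 with median centring and 1 with quantile normalization, and the median difference was -0.044 when arrays were centred on the 48 genes, -0.043 when centred on the median of all, and 0.0043 to 0.075 without single arrays. In hai1-2 the count called, 1, became 0 when centred on the 48 genes, with no filter, with no trend and with quantile normalization, and was 0 to 1 without single arrays, with 0 in 10 of 12 such fits and in 15 of all 21 alternatives; the median was -0.051 with median centring and -0.014 to 0.027 without single arrays. With the experiments as a replicate block, which pairs the arrays, the hai1-2 count was 0 and no other count among the 48 changed. Over all probe sets the block moved calls from 5838 to 6114 in Col-0, 6421 to 6687 in hai1-2, 0 to 1 on control plates and 1 to 3 under stress. Of 61 calls at low water potential among 154 probe sets of the listed families, reference genes and markers, the block ended 5 and added 2. Counts called in the genotype comparisons, the interaction and the second probe set of AT2G37480 stayed at 0 under every alternative run. The causes of these changes were not tested beyond what each setting does by construction. MAS5 signals hold no counts, so 3 arrays per group set the precision.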

Other observations

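Over single arrays, Col-0 stress array 1 and hai1-2 stress array 2 each held the highest signal for 9 of the 48 genes, and Col-0 control array 2 and Col-0 stress array 3 each held the lowest for 6. Among all 904 strong probe sets, Col-0 stress array 1 held the highest for 54 and hai1-2 stress array 2 for 164. Col-0 control array 2 held the lowest for 89 of the 904 and Col-0 stress array 3 for 60. After WLIM2b with GAPC2, the pairs of genes with the highest correlation over the 12 arrays were AT2G36930 with AT1G61780 (0.84), and AT3G60770 with AT1G27400, the S13 and L17 ribosomal proteins (0.83). These pairs were picked from 1128 for their size and are given as values only.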
